A study of Mus musculus with 10 samples.

Results

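The genes of the common gamma chain and IL-12 receptor families were followed through RNA-seq libraries of murine CD8+ T cells and keratinocytes. Members were chosen by name. All 10 of the 10 listed names, namely Il2ra, Il2rb, Il2rg, Il7r, Il15ra, Il4ra, Il21r, Il12rb1, Il12rb2 and Il15, were found among the 25814 genes of each of the 10 libraries. Of these, 9 encode receptor chains and Il15 encodes a ligand.

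Each of 5 groups held 2 libraries. In 3 groups RNA was from splenic CD8+ T cells, which had been activated for 1 d with αCD3/CD28 Abs (activated), or activated in this way and kept for 1 d more in keratinocyte medium (medium) or together with keratinocytes (co-culture). The other 2 groups held primary keratinocytes, kept without T cells (alone) or with the pre-activated CD8+ T cells (co-culture). According to the study, the co-cultures and the T cells in medium were kept in keratinocyte medium mixed with X-VIVO medium, the medium of the T cells. No group carried a mutation or transgene in the labels, and the study's methods name young adult C57/B6 mice matched for sex and age, CD8 microbeads for the isolation of the T cells, and tails of adult mice or newborn skin as sources of keratinocytes. The labels do not give the source of the keratinocytes in these libraries or whether the 2 libraries of a group came from separate mice, so that p-values measure the spread between libraries only, which may be technical. The deposited design text gives 1 h for the co-culture, whereas the labels of the T cells give 1 d. For the T cells in medium and in co-culture, the labels hold no replicate number. Replicates 1 and 2 of these groups are named by the order of the libraries in the series, which does not pair them with other libraries.

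The common gamma chain, encoded by Il2rg, is shared by the receptors for IL-2, IL-4, IL-7, IL-9, IL-15 and IL-21 and signals through the kinases JAK1 and JAK3 to STAT factors. The alpha chain of the IL-2 receptor, encoded by Il2ra, appears on T cells upon activation and raises their affinity for IL-2, whereas the IL-7 receptor is typical of resting and memory T cells. The IL-12 receptor consists of the chains β1 and β2 and signals through TYK2, JAK2 and STAT4, and the β2 chain is restricted to activated T cells and NK cells. IL-15 is presented in trans by the IL-15 receptor alpha chain of one cell to the β and gamma chains of a neighbouring cell.

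The libraries held from 12864931 to 18019609 reads on exons (median 14830028). For a gene with 1 kb of exons, 3 reads correspond to 0.158 to 0.212 RPKM (reads scaled to exon length and to the mapped reads of the library), which is the floor that counting error allows. The summed RPKM of 8 T-cell markers was 977 to 1916 in the T-cell libraries and that of Cd8a and Cd8b1 251 to 1096. The T-cell libraries also held 16.8 to 102.3 RPKM of Cd4, the highest of them in activated replicate 2. The sum of 10 keratinocyte markers was 13397 to 18751 in the keratinocyte libraries. These libraries also held the T-cell markers, with sums of 116 to 455 in keratinocytes alone and of 147 to 808 in co-cultured keratinocytes, together with 11.4 to 84.5 RPKM of Cd4. Their sum of Cd8a and Cd8b1, in contrast, was 0.224 to 3.16, although both keratinocyte groups had been labelled as cells without T cells or with CD8+ T cells. B-cell markers summed to 16.6 to 92.5 in the T-cell libraries, myeloid markers to 11.3 to 62.7, NK-cell markers to 0.599 to 2.53 and fibroblast markers to 0.541 to 2.51. Of the 5 myeloid markers listed, 4 had a level and entered the sums. The gene of Langerin, Cd207, was listed at 0 in all 10 libraries, whereas the 4 gamma-delta T-cell genes have no exons in the tables and thus no RPKM. Reads within them are listed as intron reads, for Tcrg-C2 28 to 127 in the T-cell libraries, 10 and 66 in keratinocytes alone and 7 and 131 in co-cultured keratinocytes. For Trdc they numbered 22 to 103 in the T-cell libraries, 3 and 8 in keratinocytes alone and 0 and 4 in co-cultured keratinocytes. In the same order, they were 18 to 91, 10 and 56, and 19 and 87 for Tcrg-C1, and 5 to 26, 1 and 8, and 4 and 20 for Tcrg-C4.

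The genes lie in pairs or alone on 6 chromosomes of GRCm38. Il2ra (chr2:11642807-11693193, plus strand, 10 exons) and Il15ra (chr2:11705290-11734317, plus strand) are separated by 12096 bases, and Il4ra (chr7:125552120-125579474, plus strand) and Il21r (chr7:125603429-125633570, plus strand) by 23954 bases. Il7r (chr15:9505788-9530176) and Il2rb (chr15:78479256-78495271), Il12rb1 (chr8:70808449-70821424) and Il15 (chr8:82331632-82403222) share a chromosome but are far apart. Il12rb2 is found at chr6:67291318-67376188 and Il2rg at chrX:101264378-101268255, both on the minus strand. Il2rg lies within the read-through gene Gm20489 of the same strand, and 5.49 to 7.83% of its reads were mapped uniquely. Il12rb2 overlaps by 6419 bases with Serbp1 on the opposite strand, and in the T-cell libraries as few as 36.9% of its reads were mapped uniquely. The kit does not mark strands, so that reads of Il12rb2 and Serbp1 from the shared bases could not be told apart by strand. Il4ra overlaps Gm44876 by 1342 bases in the same manner, but 100% of its reads were unique. Il12rb2 held more reads that were not unique than Serbp1 in the co-cultured T cells (578 and 447 against 86 and 69). In activated replicate 2 and medium replicate 2 it held fewer (207 and 22 against 414 and 87). The source of these reads was not tested. The levels of Il2rg and, to a lesser extent, of Il12rb2 are therefore uncertain, whereas at least 94.4% of the reads of the other members were unique.

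Promoter sequences from RefSeq (GRCm38.p6, from 250 bases before to 50 bases after a start site) were on hand for 7 of the 10 members, with 8 windows in all. They were searched on both strands for TTCNNNGAA (STAT), GAAA followed by any 2 bases and GAAA again (IRF), TGACTCA (AP-1) and GGAAAA (NFAT). The STAT letters were found in 2 members, Il7r (142 bases before the start) and Il12rb2 (123 bases before it), and in 8.30% of all 32851 windows. NFAT letters occurred in Il7r (121 bases before the start) and in the first of 2 windows of Il15ra (245 bases before it), and in 23.4% of all windows, AP-1 letters in the second window of Il15ra (30 bases before its start) and in 5.20%, and IRF letters in 0 of the 8 windows and in 3.44%. A match is no evidence of binding. The windows of the gene that changed in the T cells (Il2ra, chr2:11642542-11642841, plus strand, no match), of both members with STAT letters (Il7r, chr15:9529827-9530126, and Il12rb2, chr6:67376139-67376438, both minus strand) and of the gene with the clearest difference in keratinocytes (Il15ra, chr2:11705462-11705761, plus strand) are given 5′ to 3′ along the gene. Capitals mark the matched letters, and matches do not overlap each other.
Il2ra: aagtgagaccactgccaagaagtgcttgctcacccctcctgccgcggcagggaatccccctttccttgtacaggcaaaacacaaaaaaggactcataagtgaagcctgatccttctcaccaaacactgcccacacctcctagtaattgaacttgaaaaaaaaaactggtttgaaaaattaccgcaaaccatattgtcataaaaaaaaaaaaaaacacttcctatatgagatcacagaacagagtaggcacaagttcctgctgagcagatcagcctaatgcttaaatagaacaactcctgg
Il7r: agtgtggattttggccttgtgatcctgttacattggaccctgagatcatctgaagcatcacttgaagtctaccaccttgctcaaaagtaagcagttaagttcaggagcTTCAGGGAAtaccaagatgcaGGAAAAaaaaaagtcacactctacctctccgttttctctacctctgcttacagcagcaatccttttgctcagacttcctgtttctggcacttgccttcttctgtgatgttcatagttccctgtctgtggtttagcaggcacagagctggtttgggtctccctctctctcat
Il12rb2: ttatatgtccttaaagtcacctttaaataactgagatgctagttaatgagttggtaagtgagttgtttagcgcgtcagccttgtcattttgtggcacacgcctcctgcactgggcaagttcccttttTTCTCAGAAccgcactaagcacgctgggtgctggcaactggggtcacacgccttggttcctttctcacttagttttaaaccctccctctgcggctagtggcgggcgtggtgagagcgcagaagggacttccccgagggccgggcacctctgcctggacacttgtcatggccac
Il15ra: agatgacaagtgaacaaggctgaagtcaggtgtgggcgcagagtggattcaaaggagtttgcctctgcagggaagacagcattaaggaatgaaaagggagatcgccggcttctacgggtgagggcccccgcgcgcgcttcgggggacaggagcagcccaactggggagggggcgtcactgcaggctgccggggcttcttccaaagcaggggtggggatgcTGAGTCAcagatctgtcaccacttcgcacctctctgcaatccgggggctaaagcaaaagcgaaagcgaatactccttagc
The start site of the Il7r window lies 300 bases inside the gene as the deposited data give it, and that of the printed Il15ra window 422 bases inside. The first Il15ra window, which is not printed, has its start site 3 bases inside and is thus nearer to the start of the gene. The start site of the Il2ra window lies 15 bases outside, whereas for Il12rb2 both start sites are the same.

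The comparison of activated T cells with T cells kept for 1 d more in medium asks how the receptors change once the αCD3/CD28 stimulus has ended. Il2ra was the member that fell. It amounted to 105.3 and 67.01 RPKM in the activated libraries and to 8.89 and 6.98 RPKM in medium, so that the groups were far apart. The log2 fold change of its exon reads was -3.29 (SE 0.34, 95% interval -4.07 to -2.52, edgeR adjusted p = 0.0099), and the ratio of the mean RPKM values 10.9 fold. In the co-culture with keratinocytes, Il2ra was again low, with 11.4 and 10.1 RPKM, a log2 fold change of -2.80 against the activated cells (SE 0.33, edgeR adjusted p = 0.0054) and a ratio of means of 7.99 fold. Both comparisons share the activated libraries. Il2ra was the only one of 10 members called lower in each of them, where 4.22% of all 11863 genes tested were called lower in medium and 5.72% in the co-culture. No member was called higher, as compared to 2.32% and 4.59% of all genes. Of the 9 members other than Il15, whose reads in T cells were few, those whose libraries did not overlap numbered 2 upwards (Il2rb and Il7r) and 3 downwards (Il2ra, Il15ra and Il21r) in medium, beside 22.1% and 32.5% of all genes. In the co-culture these were 3 upwards (Il2rb, Il2rg and Il7r) and 3 downwards (Il2ra, Il15ra and Il21r), beside 23.6% and 33.9%. The median log2 fold change of the members was 0.13 in medium and 0.20 in the co-culture, beside -0.01 for all genes in both. When medium replicate 2 was left out, Il2ra was no longer called in medium (log2 fold change -3.19, adjusted p = 0.067), and when all 10 libraries entered 1 fit, neither call was kept (adjusted p = 0.070 and 0.086). In bulk RNA, fewer cells that express a gene and less RNA per cell cannot be told apart, nor can the end of the stimulus be told apart from the change of medium.

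**Figure D1:**
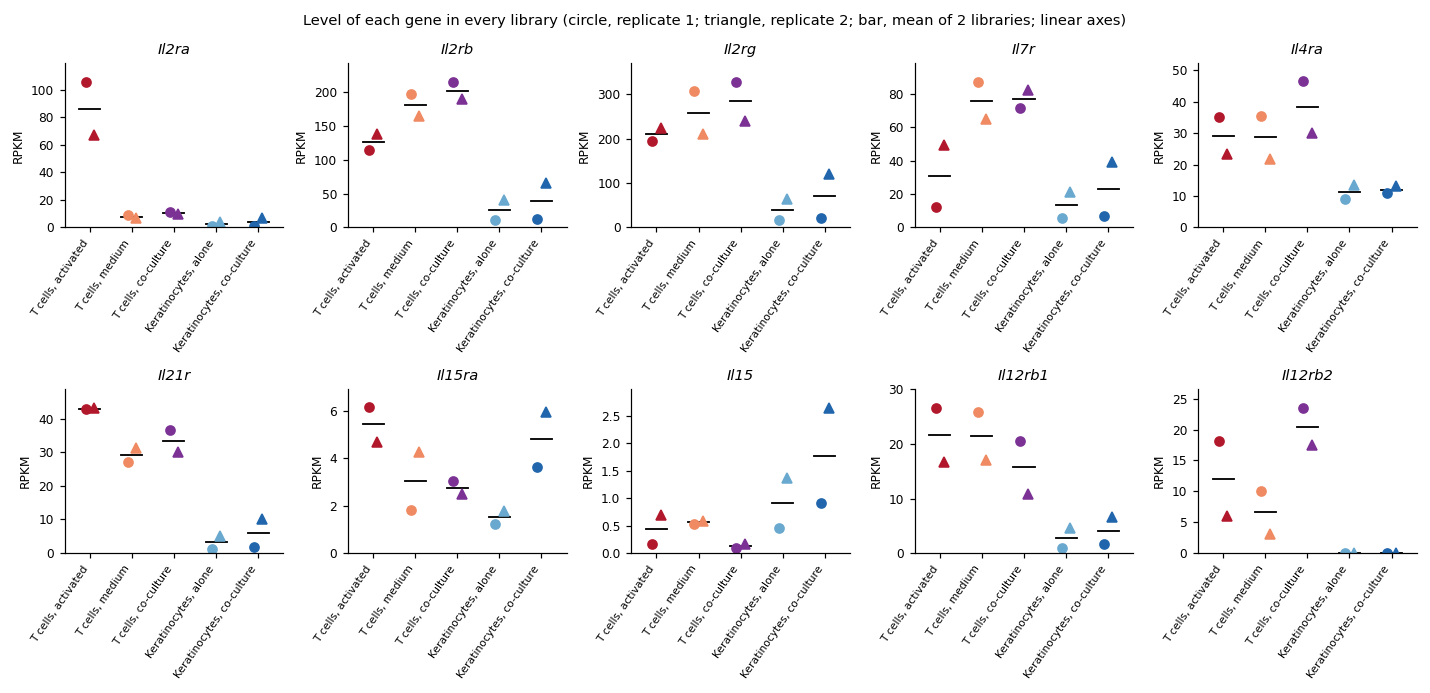
RPKM of the 10 members in each of the 10 libraries, on linear axes that start at 0 and differ between genes, with circles for replicate 1, triangles for replicate 2 and bars for the mean of 2 libraries. Il2ra stands at 105.3 and 67.01 RPKM in the activated T cells and at 11.4 RPKM or less elsewhere, whereas Il12rb2 is near 0 in the 4 keratinocyte libraries.

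No fall was called for the other chains of the IL-2 receptor. Il2rb, which encodes the β chain shared by the receptors for IL-2 and IL-15, was found at 114.5 and 137.6 RPKM in activated cells, at 196.1 and 163.8 RPKM in medium and at 213.9 and 188.6 RPKM in the co-culture. Its libraries did not overlap between the activated and either later group, but its log2 fold changes of 0.65 (SE 0.29, adjusted p = 0.21) and 0.86 (SE 0.29, adjusted p = 0.096) were not called by edgeR. DESeq2 called the second of them (0.89, adjusted p = 0.021), as did edgeR once a trend with gene length had been removed (0.97, adjusted p = 0.043). At most 7.83% of the reads of Il2rg, the common gamma chain itself, were unique, as compared to 100% for Il2rb. On all exon reads, Il2rg was the most abundant member in each T-cell library, a rank that depends on reads that were not unique. It amounted to 195.9 and 224.4 RPKM upon activation, 306.6 and 211.2 RPKM in medium, and 327.5 and 240.9 RPKM in the co-culture, with log2 fold changes of 0.43 (SE 0.30) and 0.61 (SE 0.30) that were not called (adjusted p = 0.43 and 0.23). The sum of the T-cell markers was also lower upon activation, with 977 and 1499 RPKM as compared to 1541 to 1916 RPKM in the later groups. For the Cd3 genes the sum was 359 and 707 as compared to 882 to 1073 RPKM. Not all single markers were lower. Cd5 was higher upon activation, with 125.2 and 108.5 RPKM as compared to 77.6 to 89.2 RPKM later, and Cd2, Cd3e, Lck and Zap70 overlapped between activated and later libraries. The part of these transcripts in the levels of Il2rb, Il2rg and Il7r was not tested.

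At most 7.83% of the reads of Il2rg were unique, so that sums and shares that include it are uncertain. On all exon reads, the makeup of the 3 transcripts of the IL-2 receptor differed between the groups. Il2ra made up 25.3% and 15.6% of their summed RPKM in the activated libraries, 1.74% and 1.83% in medium and 2.07% and 2.31% in the co-culture. Per length, Il2rb exceeded Il2ra by 1.09 and 2.05 fold upon activation, by 22.1 and 23.5 fold in medium and by 18.7 and 18.6 fold in the co-culture. The sum of the 3 transcripts, 416 and 429 RPKM in activated cells, was 512 and 382 RPKM in medium and 553 and 440 RPKM in the co-culture, so that the activated libraries lay within the range of the medium.

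**Figure D2:**
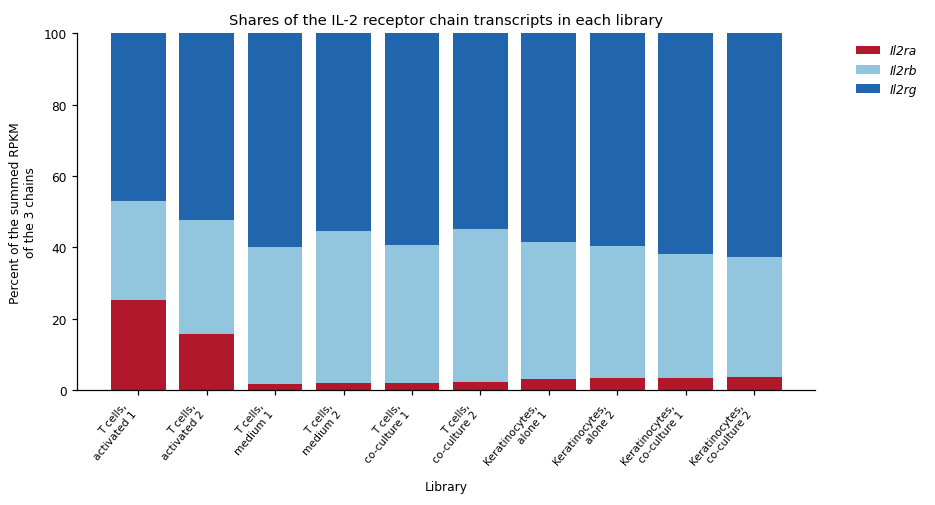
Percent of the summed RPKM of Il2ra, Il2rb and Il2rg that each chain contributes, in each of the 10 libraries. Il2ra takes 25.3% and 15.6% in activated T cells, 1.74 to 2.31% in the T cells of the later groups and 2.99 to 3.52% in the keratinocyte libraries. Shares rest on all exon reads, of which at most 7.83% were unique for Il2rg.

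Il7r, which encodes the alpha chain of the IL-7 receptor, was lowest in the activated libraries. It was found at 11.96 and 49.2 RPKM in activated cells, at 87.0 and 64.8 RPKM in medium and at 71.6 and 81.9 RPKM in the co-culture. Both activated libraries were below the 4 later ones, but they differed widely from each other, and the log2 fold changes of 1.42 (SE 0.60, adjusted p = 0.19) and 1.50 (SE 0.60, adjusted p = 0.15) were not called. Without activated replicate 2 these fold changes were 2.86 and 2.94, whereas without activated replicate 1 the one in medium was 0.73. When edgeR was run on all genes without filter, both were called (adjusted p = 0.0039 and 0.0015). Activated replicate 2, the library with the higher level of Il7r, also held 102.3 RPKM of Cd4 as compared to 16.8 in replicate 1, and this level was above those of the later T-cell groups, which held 62.0 to 75.9 RPKM. Its myeloid markers summed to 62.7 RPKM, as compared to 11.3 in replicate 1. The part of these transcripts in the level of Il7r was not tested.

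The remaining gamma chain partners differed less between the groups of T cells. Il21r, the receptor for IL-21, was at 42.7 and 43.2 RPKM upon activation, at 27.1 and 31.3 RPKM in medium and at 36.7 and 30.1 RPKM in the co-culture. Although the activated libraries were the highest, its log2 fold changes were only -0.41 and -0.18 (SE 0.29 for both, adjusted p = 0.44 and 0.74). Il4ra, which binds IL-4 and, with other partners, IL-13, ranged from 21.7 to 46.6 RPKM in the T cells, with overlap between all 3 groups. Its log2 fold changes against activated cells were 0.12 (SE 0.35) in medium, a sign that turned in limma on log2(RPKM + 1), and 0.58 (SE 0.35) in the co-culture, and neither was called (adjusted p = 0.88 and 0.31).

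Il15ra was among the weakly expressed members. Its levels were 6.19 and 4.69 RPKM in activated cells, 1.84 and 4.28 RPKM in medium and 3.04 and 2.49 RPKM in the co-culture, from 67 to 245 reads per library. Both activated libraries exceeded the others, but the log2 fold changes of -0.65 (SE 0.55) and -0.78 (SE 0.55) were within the spread of the libraries (adjusted p = 0.52 and 0.40). The first of them was -0.091 without medium replicate 1 and -1.48 without medium replicate 2. Il15 was scarcely detectable in T cells, with 3 to 22 reads and 0.0904 to 0.701 RPKM, where 3 reads of this gene correspond to 0.0725 to 0.0973 RPKM. The lowest of these libraries was at the floor, and the depth allows no statement on changes of Il15 in T cells.

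Neither chain of the IL-12 receptor was called between groups of T cells. Il12rb1, which encodes the chain shared with the IL-23 receptor, was found at 26.6 and 16.6 RPKM in activated cells, at 25.8 and 17.2 RPKM in medium and at 20.6 and 10.8 RPKM in the co-culture, and the groups overlapped. Il12rb2, which encodes the signalling β2 chain, amounted to 18.1 and 6.00 RPKM in activated cells, to 10.1 and 3.09 RPKM in medium and to 23.5 and 17.5 RPKM in the co-culture. Here both co-cultured libraries exceeded both libraries in medium. Against activated cells, the log2 fold changes of Il12rb2 were -0.74 in medium and 0.97 in the co-culture (SE 0.61 for both, adjusted p = 0.51 and 0.34), and the first of them turned to 0.20 without activated replicate 1. Per length, Il12rb2 amounted to 0.18 to 0.68 of Il12rb1 in the activated and medium libraries, and to 1.14 and 1.62 of it in the co-culture. On uniquely mapped reads, a setting added after the data had been seen, these ratios were 0.13 to 0.44 in the activated and medium libraries and 0.65 and 0.85 in the co-culture, so that Il12rb2 exceeded Il12rb1 on all exon reads only.

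**Figure D3:**
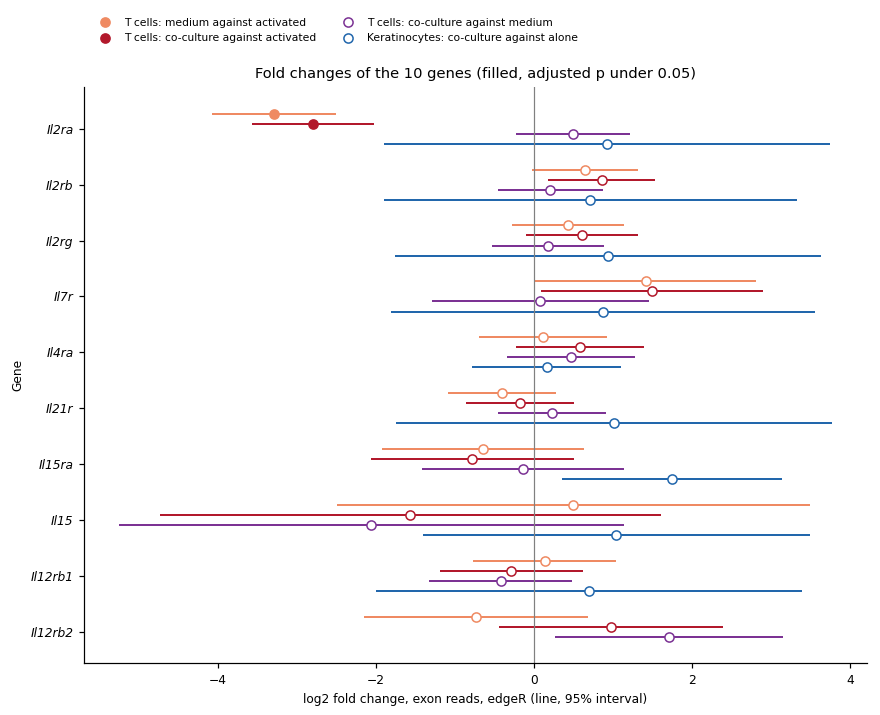
Log2 fold changes of the 10 members with 95% intervals in 4 comparisons, computed by edgeR from exon reads, with filled symbols for an adjusted p under 0.05. Only Il2ra has filled symbols, at -3.29 and -2.80, and the intervals of most members are widest in the keratinocytes.

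The comparison of co-cultured T cells with T cells in medium asks what the presence of keratinocytes adds. No member was called by edgeR in either direction, where 0.261% of all 11863 genes were called, all of them higher. Il12rb2 was the 1 of 10 members with an unadjusted p under 0.05, as compared to 3.45% of all genes, and DESeq2 called 0 members. Its log2 fold change was 1.71 (SE 0.62, 95% interval 0.27 to 3.15, unadjusted p = 0.025, adjusted p = 1.0). This value ranged from 1.13 to 2.67 when single libraries were left out, and it was called only without filter (adjusted p = 0.014, over a range of 0.014 to 1.0). The log2 fold change of Il2ra was 0.50 (SE 0.31, adjusted p = 1.0), although its libraries did not overlap. Of the 9 members other than Il15, those that did not overlap were 2 upwards (Il2ra and Il12rb2) and 0 downwards, as compared to 14.2% and 13.1% of all genes. The intervals of Il2rb (-0.45 to 0.87), Il2rg (-0.51 to 0.88) and Il21r (-0.44 to 0.90) include 0 and leave room for changes of almost 2 fold, so that equal levels were not shown.

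Keratinocyte RNA was present in the co-cultured T cells. The sum of the 10 keratinocyte markers was 54.3 and 99.97 RPKM there and 5.84 to 7.67 RPKM in medium, with Krt15 at 0 in all 6 T-cell libraries, and thus reached at most 0.746% of the lowest sum in keratinocytes. Its part in the levels of the members was not tested. B-cell markers summed to 16.6 and 27.3 RPKM in the co-culture and to 44.7 and 92.5 RPKM in medium.

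In the keratinocyte libraries, Il12rb2 was represented by 0 to 4 reads per library and at most 0.0555 RPKM, as compared to 202 to 1357 reads in T cells. The share of reads on Il12rb2 was 340 fold higher in the T cells (95% exact interval 184 to 709, counting error only, from 4570 and 10 reads). On uniquely mapped reads, a setting added after the data had been seen, it was 209 fold higher (113 to 435, from 2658 and 10 reads). The other receptor chains were found in all 4 keratinocyte libraries, and most were far higher in replicate 2 of each group. Il2rg, for example, was found at 16.6 and 63.9 RPKM without T cells and at 22.1 and 121.6 RPKM in the co-culture. Il2rb was at 11.0 and 39.7 RPKM alone and at 12.5 and 65.3 RPKM in the co-culture. Il7r amounted to 5.80 and 21.0 RPKM alone and to 6.78 and 39.0 RPKM in the co-culture. The spread within a group thus exceeded the differences between the groups for these genes.

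The levels of 6 members went with that of Cd4, the coreceptor of helper T cells, which was 7.39 fold higher in the highest than in the lowest of the 4 keratinocyte libraries. Il2rg varied by 7.31 fold among them, but its ratio to Cd4 by 1.03 fold, from 1.44 to 1.48. For Il21r, a range of 7.61 fold shrank to 1.05 fold (ratios of 0.12), and for Il7r a range of 6.72 fold to 1.12 fold (0.45 to 0.51). Likewise, the range fell to 1.14 fold for Il2ra, to 1.24 fold for Il2rb and to 1.48 fold for Il12rb1. The level of Il4ra varied by 1.51 fold only, whereas its ratio to Cd4 varied by 5.07 fold, and the ratio of Il15ra to Cd4 by 5.93 fold. Other markers moved in the same manner. The ratio of the Cd3 genes to Cd4 varied by 1.10 fold, and that of Lyz2, a myeloid gene at 6.69 and 27.4 RPKM alone and 7.30 and 37.6 RPKM in the co-culture, by 1.42 fold. The 4 myeloid markers with a level, Lyz2 among them, summed to 9.16 and 31.9 RPKM alone and to 10.1 and 44.6 RPKM in the co-culture. The levels of the 6 members thus do not go with Cd4 alone. Cd14, another myeloid marker, moved less, with 2.25 and 2.76 RPKM alone and 2.34 and 4.67 RPKM in the co-culture. For Il15, a range of 5.75 fold fell to 1.93 fold, and for the B-cell markers one of 7.25 fold to 1.85 fold. The 6 members (1.03 to 1.48 fold) were set apart from Il15 without a threshold, and the ratios are a description of 4 libraries, chosen after their values had been seen, and in each of them both levels come from the same library.

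**Figure D4:**
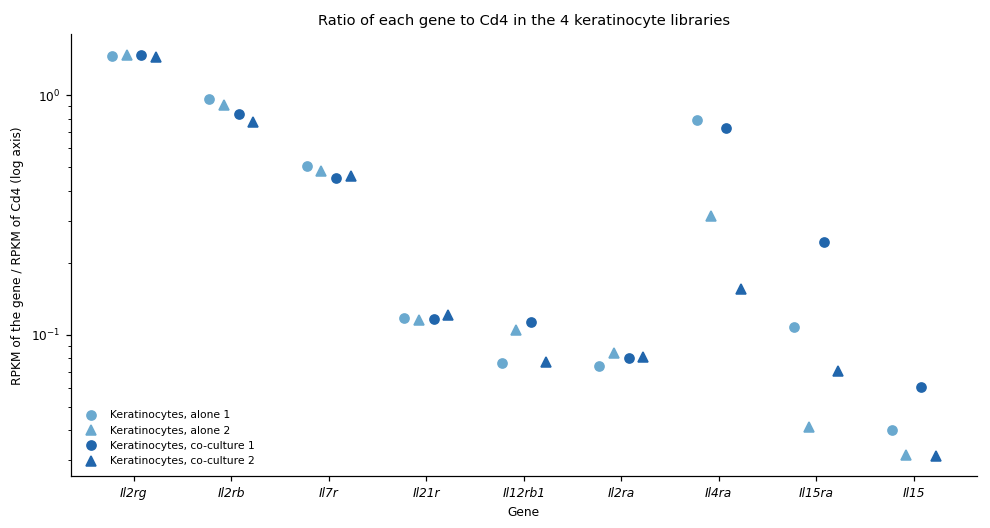
Ratio of the RPKM of 9 members to that of Cd4 in the 4 keratinocyte libraries, on a log axis, with circles for replicate 1 and triangles for replicate 2. The ratios of Il2rg, Il2rb, Il7r, Il21r, Il12rb1 and Il2ra differ by 1.03 to 1.48 fold among the libraries, those of Il4ra and Il15ra by 5.07 and 5.93 fold.

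A second measure gave the level that the RNA of the sequenced T cells would bring along, from the sum of Cd3d, Cd3e and Cd3g, which was 7.87 to 52.7% of its mean in the T-cell libraries. Il12rb2 reached 0 to 5.41% of the level scaled in this way, Il2ra 30.9 to 37.0%, Il21r 48.7 to 55.3% and Il12rb1 56.7 to 89.8%. Il2rb reached 73.3 to 82.5% of it, Il2rg 84.1 to 91.9% and Il7r 115 to 121%. Il15ra amounted to 163 to 1008% and Il15 to 1260 to 2513% of it, that is to more than this scaled level in each of the 4 libraries. Il4ra exceeded it in 3 libraries (145 to 357%) and stayed below in co-culture replicate 2 (77.7%). This level rests on the mean of all 6 T-cell libraries, including the activated ones. When it was set by the 4 later T-cell libraries alone, a setting added after the data had been seen, Il2ra reached 137 to 164% of it, Il21r 65.02 to 73.8%, Il12rb1 71.03 to 112%, Il2rb 77.2 to 86.9%, Il2rg 92.4 to 100.9% and Il7r 109 to 115%, and Il12rb2 remained at 0 to 6.20%. Together with the near absence of Cd8a and Cd8b1 transcripts, these are values of the libraries, and the source of the T-cell transcripts was not tested.

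The comparison of co-cultured keratinocytes with keratinocytes alone asks how these receptors differ in keratinocytes kept with T cells. The co-cultures held X-VIVO medium too, and the labels do not give the medium of keratinocytes alone. The presence of T cells can therefore not be told apart from a change of medium. Of the 9 members tested, since Il12rb2 did not pass the filter on low counts, 0 were called by edgeR, as were 0% of all 12515 genes, and DESeq2 called 0 members too. At an unadjusted p under 0.05 there were 1 of the 9 members and 7.2% of all genes. This member was Il15ra, which encodes the chain that presents IL-15. It was found at 1.23 and 1.79 RPKM without T cells and at 3.66 and 5.97 RPKM in the co-culture, from 55 to 232 reads. Both co-cultured libraries were above both others, with a log2 fold change of 1.75 (SE 0.54, 95% interval 0.37 to 3.13, unadjusted p = 0.023, adjusted p = 0.66) and 3.18 fold higher means. Il15ra was the only member of the 9 without overlap, as compared to 19.8% of all genes that were higher without overlap. Its adjusted p ranged from 0.060 to 1.0 among the alternatives, and its log2 fold change from 1.26 to 2.10 without single libraries.

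Il15 itself, at 0.459 and 1.37 RPKM alone and at 0.905 and 2.64 RPKM in the co-culture, overlapped between the groups (log2 fold change 1.04, SE 0.94, adjusted p = 0.73). Il4ra was even among the 4 libraries, with 9.01 and 13.6 RPKM alone and 10.9 and 13.1 RPKM in the co-culture (log2 fold change 0.16, SE 0.36, adjusted p = 0.87). The 6 members that went with Cd4 had log2 fold changes of 0.69 to 1.02 with standard errors of 1.01 to 1.09, and without co-culture replicate 2 all 6 of them turned to negative values. Within each replicate number, all 6 were higher in the co-culture than alone, although no label marks these libraries as pairs. The median over the 9 members was 0.93, beside 0.02 for all genes. An interaction term for the change with co-culture in T cells as opposed to keratinocytes called 0 members by edgeR at an adjusted or unadjusted p under 0.05 and 0 by DESeq2, as compared to 0.576% of 13202 genes by adjusted and 7.06% by unadjusted p. Il15 in T cells and Il12rb2 in keratinocytes were too low for this term to be read. Of the other 8 members, Il15ra had the largest difference (-1.89, SE 0.86).

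When all T cells were compared with all keratinocytes, 6 of the 8 members with at least 10 reads in every library were called higher in T cells, as compared to 18.7% of all 13394 genes and to 21.5% of the 9427 genes with that many reads. They were Il21r (log2 fold change 2.94, SE 0.58), Il2ra (2.63, SE 0.58), Il12rb1 (2.46, SE 0.56), Il2rb (2.35, SE 0.55), Il2rg (2.15, SE 0.56) and Il4ra (1.40, SE 0.24), and the highest of their adjusted p values was 0.011. Their T-cell and keratinocyte libraries did not overlap, which held for 11.7% of all genes in this direction. Il12rb2, which was called too, entered the test through its reads in T cells alone, and its read shares are given above. Il7r was not called by edgeR (log2 fold change 1.65, SE 0.64, adjusted p = 0.058), but it was called higher by DESeq2 (adjusted p = 0.013), by limma with either pseudocount (0.023), by edgeR without filter (0.0052) and without the length trend (0.035), and without any 1 of 3 libraries, activated replicate 1, keratinocytes alone replicate 2 and co-cultured keratinocytes replicate 2 (0.0083 to 0.040). Il15ra was at similar levels, with 1.84 to 6.19 RPKM in T cells and 1.23 to 5.97 RPKM in keratinocytes (log2 fold change 0.39, 95% interval -0.47 to 1.25, adjusted p = 0.42). Il15 passed the filter through its reads in keratinocytes (19 to 95, as compared to 3 to 22 in T cells), and its levels, given above, are a description. The T-cell transcripts in the keratinocyte libraries, described above, enter each of these values, and their part was not tested beyond the ratios given.

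Among 11 ligand genes of these receptors, 8 passed the filter between the cell types. Tslp, Il7 and Il15 passed it through their reads in keratinocytes, so that their levels are given as a description. Tslp, whose product acts through the IL-7 receptor alpha chain and the chain encoded by Crlf2, was found at 80.4 and 223.8 RPKM in the keratinocytes without T cells, at 68.8 and 266.6 RPKM in the co-culture and at 1.12 RPKM or less in T cells. Il7 amounted to 0.963 to 1.94 RPKM in keratinocytes and to at most 0.233 RPKM in T cells. Within the T cells and within the keratinocytes, 0 of the 7 and 4 ligands tested were called by edgeR, where at most 5.72% of all genes were called in 1 direction. Il2 was found at 2.18 and 1.82 RPKM in activated T cells, at 0 and 0.963 RPKM in medium and at 0.172 and 0.185 RPKM in the co-culture (log2 fold change of the co-culture -3.24, SE 1.77, adjusted p = 0.27). Of the IL-12 subunits, Il12b was listed at 0 and Il12a at 0 in all 4 keratinocyte libraries.

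Of 5 other receptor chains of the family, 4 passed the filter between the cell types, Il13ra1 through its reads in keratinocytes. Il13ra1, which pairs with the product of Il4ra, was at 9.96 and 14.1 RPKM without T cells and at 16.7 and 21.9 RPKM in the co-culture, but at 0.663 RPKM or less in T cells, with 0 reads in co-culture replicate 2. Crlf2 was found at 16.04 to 38.3 RPKM in T cells and 10.01 to 30.9 RPKM in keratinocytes and was not called (adjusted p = 0.18).

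Of 9 kinases and STAT factors that transmit the signals of these receptors, 0 were called in any comparison within the T cells or within the keratinocytes, where at most 5.72% of all genes were called in 1 direction, and 5 were called higher in T cells than in keratinocytes (Stat4, Jak3, Stat5b, Stat5a and Jak2), as compared to 18.7% of all genes. Stat4, which acts downstream of IL-12, was 3.15 higher on the log2 scale (SE 0.54, adjusted p = 0.0014) and Jak3, the partner of the common gamma chain, 2.31 (SE 0.46, adjusted p = 0.0034). Stat5a, a main factor downstream of IL-2, amounted to 36.9 and 24.6 RPKM in activated T cells and to 12.6 and 6.20 RPKM in medium (log2 fold change -1.58, SE 0.52, edgeR adjusted p = 0.11). In the co-culture it was at 12.1 and 3.99 RPKM (-1.77 against activated cells, SE 0.53, edgeR adjusted p = 0.070).

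Among 7 feedback genes and targets of STAT5, 2 were called lower in medium than in activated T cells (Cish and Pim1) and 2 in the co-culture (Osm and Pim1), as compared to 4.22% and 5.72% of all genes. Cish, an inhibitor induced by STAT5, was found at 45.3 and 46.8 RPKM upon activation and at 8.82 and 14.7 RPKM in medium (log2 fold change -1.80, SE 0.38, adjusted p = 0.035). In the co-culture it was at 19.5 and 23.3 RPKM, which was not called (-0.90, SE 0.37, adjusted p = 0.16). Pim1, a kinase gene induced by cytokines, went from 112.4 and 101.7 RPKM to 28.3 and 33.9 RPKM in medium and 31.1 and 34.0 RPKM in the co-culture, and was called in both (-1.63, SE 0.31, adjusted p = 0.026, and -1.52, SE 0.31, adjusted p = 0.022). Osm, the gene of the cytokine oncostatin M, was called lower in the co-culture (-2.28, SE 0.50, adjusted p = 0.029) and was just outside the threshold in medium (-2.01, SE 0.50, adjusted p = 0.052). The survival gene Bcl2 was at 7.74 and 10.3 RPKM in activated cells, 3.58 and 2.46 RPKM in medium and 11.9 and 7.83 RPKM in the co-culture, and it was called neither between medium and activated cells (-1.45, SE 0.35, adjusted p = 0.05004) nor between the later groups (1.75, SE 0.36, adjusted p = 0.20). Between the cell types, 2 of these 7 genes were called higher in T cells, Bcl2 (3.14, SE 0.29, adjusted p = 4.9e-05) and Socs1, which encodes an inhibitor of JAK kinases (2.52, SE 0.41, adjusted p = 0.0011), beside 18.7% of all genes, and 1 lower, Pim1 (-0.99, SE 0.22, adjusted p = 0.0058), beside 30.6%. Socs1 was at 18.8 to 41.7 RPKM in T cells and at 1.49 to 10.5 RPKM in keratinocytes.

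The genes whose levels were most like those of each member over the 6 T-cell libraries were taken from 7047 genes by the Pearson correlation of log2(RPKM + 1), as a description of 6 libraries. Il2ra was nearest to Acy1 (r = 0.998) and Jmjd6 (r = 0.997), the latter with 50.3 and 31.4 RPKM in activated cells and 5.07 to 7.68 RPKM afterwards. Il7r was nearest to Prr13 (r = 0.997) and Tmbim6 (r = 0.996), and Il2rb to Bscl2 (r = 0.997) and Btbd2 (r = 0.993). For Il12rb1 these were Tmpo and Map3k11 (both r = 0.996), for Il12rb2 Tmem106c (r = 0.985) and Taco1 (r = 0.974), and for Il21r Ints8 (r = 0.994) and Fkbp2 (r = 0.984). Il2rg was nearest to Pced1b (r = 0.989), Il4ra to Kctd20 (r = 0.990) and Il15ra to Tlnrd1 (r = 0.983), whereas Il15 was too low to be compared. With 6 libraries and this many genes, high values of r arise readily, and no meaning is drawn from these neighbours.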

How the data were processed

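RNA-seq was analysed from 10 libraries in 5 groups. The authors sequenced single-end reads of poly(A) RNA (NEBNext Ultra II kit), mapped them to GRCm38 with the CLC Genomics Workbench and deposited, per gene, counts of exon reads without normalization, counts of uniquely mapped exon reads and of intron reads, and RPKM values, in which exon reads are scaled to exon length and mapped reads. The annotation release is not given in the sources used here, and the coordinates of the 10 members are the same in GENCODE vM21. Groups were taken from the labels.

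Members and gene lists were chosen with earlier results of these data known. Log2 fold changes were computed from exon counts by the quasi-likelihood test (glmQLFit, glmQLFTest) of edgeR 4.0.16, run under R 4.3.3 after filterByExpr and TMM scaling, and p-values were adjusted by Benjamini-Hochberg over all genes tested (threshold 0.05). The 6 T-cell libraries, the 4 keratinocyte libraries, all 10 libraries (T cells against keratinocytes) and 8 libraries (difference of the co-culture effects) were fitted apart. An SE is |log2 fold change|/√F, with F from edgeR's test, and the 95% interval from the t distribution with the degrees of freedom of the test. RPKM values were used for levels and ratios. Calls were recomputed with DESeq2 1.42.0 and with limma 3.58.1 (RPKM on the log2 scale, pseudocount 1 or 0.1). edgeR was also run with plain library sizes, without the filter, with a minimum of 10 reads per library, on unique reads, after removal of the trend with gene length, with a replicate block, with other libraries in the fit and without each library in turn. The subtraction of a level that goes with Cd4, the level set by the 4 later T-cell libraries and the ratios of unique reads were added with the data in view. Fold changes of edgeR and DESeq2 were checked on simulated counts for medium against activated T cells and for the keratinocytes. This check does not cover the other comparisons, and it does not show that the calls in these data hold. Tables and plots were made with Python 3.11.15, numpy 2.4.6, pandas 2.3.3 and matplotlib 3.10.9.

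All 10 members are named, and genes of the pathway where they passed the threshold or are partners of a member, and beside these Il2, Stat5a, Bcl2, Il12a and Il12b, which were chosen after their values had been seen. For each member with a mean of 5 or more RPKM in a T-cell group, the 2 nearest genes were taken. No molecular identifiers were used, so that floors and intervals from counts describe counting error and no more. Counts of libraries in a group differed far beyond sampling noise (mean chi-square per degree of freedom 94.2 to 209). 1 gene of the list of kinases and STAT factors is not reported here. Protein sequences were not used here.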

Additional observations from a re-analysis of the deposited data

How the results depend on the processing

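The fall of Il2ra after activation kept its direction in all alternatives and its call in all but the fit of 10 libraries and, in medium, the one without medium replicate 2. Of 10 members, 2 were called in medium without filter and 0 with all 10 libraries in 1 fit. In the co-culture against activated cells, 2 were called by DESeq2, without filter and after removal of the length trend, and 0 with all 10 libraries in 1 fit. Without filter, 1 was called between co-culture and medium. Without single libraries, 0 to 2 members were called in medium and 1 to 2 in the co-culture. With 2 libraries a group, leaving one out assumes that the lone library varies like the others. The causes were not tested.

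The number of all genes called moved more. In medium against activated cells it went from 776 to 1947 with DESeq2, 1945 without filter, 1256 without the length trend, and 24 to 1067 without single libraries. For the co-culture against activated cells it went from 1222 to 2368 with DESeq2, 2425 without filter and 266 to 1093 without single libraries. Between co-culture and medium, 31 calls became 87 with DESeq2, 99 and 107 with limma on log2(RPKM + 1) and log2(RPKM + 0.1), 141 without filter, 0 with at least 10 reads in every library, 83 with all 10 libraries in 1 fit and 16 to 52 without single libraries. In keratinocytes, 0 calls became 186 with DESeq2, 11 without filter, 4 with all 10 libraries in 1 fit and 0 to 1164 without single libraries. The 6601 calls between the cell types fell to 4343 with at least 10 reads in every library, and the 76 calls of the interaction became 353 with DESeq2, 205 without filter, 0 with at least 10 reads and 21 to 105 without single libraries.

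The replicate numbers of the labels are shared by both keratinocyte groups, without a statement that they mark a shared mouse or day. Deviations of same-numbered libraries from their group means correlated with r = 0.56 over 12515 genes, which are not independent. With a replicate block, 2 genes and 0 members were called, and with a replicate block and the length trend removed 332 genes and 0 members. The 6 members that went with Cd4 had log2 fold changes of 0.52 (Il2rb) to 0.80 (Il12rb1) with the replicate block, none of them called. Il15ra changed by 1.73 (adjusted p = 0.14) and 1.57 (adjusted p = 0.078) in these fits.

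Signs that turned were those of small or noisy changes. In medium against activated cells, limma gave -0.035 (pseudocount 1) and -0.037 (pseudocount 0.1) for Il4ra and -0.00015 for Il12rb1 on log2(RPKM + 1). Without single libraries, Il4ra ranged from -0.17 to 0.40, Il12rb1 from -0.12 to 0.47, Il12rb2 from -1.69 to 0.20 and Il15 from -0.20 to 1.96 in this comparison, and Il12rb1 from -0.70 to 0.045 in co-culture against activated cells. Between co-culture and medium, Il2rg ranged from -0.0041 to 0.37, Il7r from -0.12 to 0.26 and Il15ra from -0.68 to 0.70. In keratinocytes, Il2ra ranged from -0.94 to 2.40, Il2rb from -1.05 to 1.99, Il2rg from -0.88 to 2.28, Il7r from -1.001 to 2.15, Il4ra from -0.13 to 0.53, Il21r from -0.89 to 2.32, Il12rb1 from -0.70 to 2.39 and Il15 from -0.035 to 2.09, with the negative values without co-culture replicate 2 or, for Il4ra and Il12rb1, also without replicate 1 of keratinocytes alone. For the interaction, Il2ra ranged from -1.91 to 1.48, Il2rb from -1.78 to 1.30, Il2rg from -2.10 to 1.11, Il7r from -2.06 to 1.13, Il4ra from -0.057 to 0.60, Il21r from -2.09 to 1.16 and Il12rb1 from -2.81 to 0.32. At this depth, Il15 in T cells and Il12rb2 in keratinocytes are at the limit of detection.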

Other observations

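When the level of Il7r that would go with Cd4 at the mean ratio of the keratinocyte libraries (0.48) was subtracted from the T-cell libraries, a calculation chosen after the data had been seen, 3.96 and 0.492 RPKM of 11.96 and 49.2 RPKM remained in activated cells. In medium 54.96 and 28.6 RPKM remained, and in the co-culture 40.8 and 52.4 RPKM. For Il2ra, 104.0 and 58.8 RPKM remained in activated cells, 3.51 and 0.911 RPKM in medium and 6.28 and 5.18 RPKM in the co-culture. The log2 ratio of mean RPKM between medium and activated cells thereby went from -3.44 to -5.20 for Il2ra, and to -4.97 and -5.43 at the lowest and highest ratio of the keratinocyte libraries. For Il7r no such ratio is given, since the remainder in activated replicate 2 was 2.82 RPKM at the lowest and -2.78 RPKM at the highest ratio and could not be told apart from 0. The other 4 members moved less between medium and activated cells, from 0.51 to 0.66 for Il2rb, from 0.30 to 0.33 for Il2rg, from -0.56 to -0.79 for Il21r and from -0.0095 to -0.12 for Il12rb1. Between the co-culture and activated cells, the log2 ratio went from -3.00 to -3.83 for Il2ra and from 0.67 to 0.98 for Il2rb. Between the co-culture and medium, that of Il2ra went from 0.44 to 1.37. Il2rg, Il21r and Il12rb1 moved less than these in both comparisons. Whether Cd4 and these receptors keep a fixed ratio in the T-cell libraries was not tested.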
